A study of Mus musculus with 6 samples.

Results

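Siglec1 (sialoadhesin, CD169) is a large lectin on the surface of macrophages, built of a long row of immunoglobulin-like domains whose outermost one binds sialic acid. Its gene is a well known target of type I interferon, and it is often read as a sign of interferon exposure in monocytes and macrophages. Described here are 3 long non-coding RNA (lncRNA) features of 24817 in a deposited table, MSTRG.33036.1, NONMMUT039917.2 and NONMMUT039918.2, chosen by name because they lie side by side on chromosome 2 and held fewer reads in the treated cells. The table ties each of them to Atrn (ENSMUSG00000027312), the gene of attractin, a ubiquitous membrane protein with a soluble form. Which gene they belong to is therefore examined first. Their difference between the groups was used to choose them and is described without a test.

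The cells were RAW264.7, a mouse macrophage line, labelled as macrophages of the abdominal cavity. By treatment label, all 6 libraries came from cells given lipopolysaccharide (LPS, a bacterial activator of TLR4) for 24 h and then moved to medium conditioned by polymethyl methacrylate (PMMA) bone cement. The LPS_ES_PMMA group (3 libraries) received extract of cement loaded with the heparin derivative enoxaparin sodium, and the LPS_PMMA group (3 libraries) received extract of plain cement by title and treatment label, although its descriptions and table columns name LPS alone. By title and treatment label, no group without LPS or without extract entered the comparison. Why the descriptions of the LPS_PMMA libraries leave out the cement could not be settled. Whether the libraries in each group stem from different cultures is not stated, and a p-value then measures only the spread between these libraries, which may be technical.

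The libraries held 1123551 to 3697638 counts over all features, and LPS_ES_PMMA 2 was the shallowest. Across the table, 422 of 8873 tested features (4.76%) passed edgeR's quasi-likelihood test at a Benjamini-Hochberg adjusted p of 0.05, with 193 higher (2.18%) and 229 lower (2.58%) in LPS_ES_PMMA. Scaled by column totals in place of TMM factors (the scaling used here), the split was 301 higher and 68 lower, and the median log2 fold change over the tested features moved from 0.03 to 0.80. In such bulk libraries fewer cells of a type and less RNA per cell cannot be told apart.

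As listed, the 3 features occupy 19468 bp of chromosome 2, from 130916810 to 130936277, and do not overlap. MSTRG.33036.1 (130916810 to 130918209) is a transcript assembled by the authors, labelled as intronic, and its 671 nt are spliced from a span of 1400 bp. NONMMUT039917.2 (130925441 to 130929076) is a NONCODE entry of 3636 nt without introns, 7.23 kb further on and labelled as intronic and sense. NONMMUT039918.2 (130932748 to 130936277) is an unspliced NONCODE entry of 3530 nt, another 3.67 kb away and labelled as exonic and sense. The table's strand column equals the strand of the tied gene in 13687 of 13687 rows with such a gene. The plus sign listed for the 3 features is thus the strand of Atrn and not a measurement of the strand of the reads.

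The position of the features was checked against GENCODE M21, an annotation of GRCm38 (mm10), the build that the submitters' processing notes name. Of 204 Ensembl transcripts listed on chromosome 2 and found there, 203 had the same ends in both. Assembled transcripts did not lie where the annotation has them. The nearest that could be matched whole, MSTRG.33000.1 (131052290 to 131054922, 868 nt), had the ends and the length of an Ap5s1 transcript to the base, but 158080 bp lower. The table ties it to Adam33. Its listed start is 116 kb from the 3 features. Further matches on the distal part of the chromosome, up to 172132440, lay at the same offset of 158.08 kb within 1 bp, whereas the next match towards the centromere, to Hypk at 121287615, lay at 169519 bp.

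Spliced length gave a second reading of that offset. It is not independent of the first, because the transcripts counted include those matched whole and MSTRG.33036.1 itself. Among 54 spliced assembled transcripts between the 3 features and the last match, 32 had a length equal to the exonic bases of an annotated transcript between their ends at 158080 bp, and 1 had at the listed position. In the 10 Mb around the 3 features the counts were 10 of 16 and 0 of 16. Only 8 candidate offsets were tried, 0 and those of transcripts matched whole on chromosome 2. No other candidate more than 10 bp away gave a match there, which leaves all further offsets untried. GRCm39 gene models were not used here, and the offset is a displacement measured against M21, not a conversion between builds.

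At the listed position MSTRG.33036.1 falls inside an intron of Atrn and covers 0 exonic bases. At 158080 bp it falls inside Siglec1 (GRCm38 chromosome 2, 131069220 to 131086765, minus strand, 21 exons), across exons 11, 12 and 13 of ENSMUST00000028794. Between its shifted ends lie 177 bases of exon 11, the whole 312 bases of exon 12 and 182 bases of exon 13. Their sum is 671, the listed length of MSTRG.33036.1. Because both ends fall within exons, the sum stays at 671 for any offset between 158010 and 158164 bp. Of 2000001 offsets up to 1000000 bp either way, 644 (0.0322%) gave that length on some spliced transcript of M21. Of these 644, 165 were on Siglec1. Other genes in that range thus gave the same length, and the share is not a probability of the Siglec1 match.

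The exon junctions are printed because they are the sequences that would separate the candidate host genes in reads. They are 60 bases of spliced transcript from M21 (GRCm38), 30 from each exon, 5′ to 3′ on the strand of the gene, with the 6 bases on either side of the junction in capitals. The Siglec1 junctions are those that MSTRG.33036.1 spans at the offset, and the Atrn junction joins the exons that NONMMUT039918.2 covers as listed.
Siglec1 exon 11 (chr2:131076113-131076373) to exon 12 (chr2:131075694-131076005), minus strand: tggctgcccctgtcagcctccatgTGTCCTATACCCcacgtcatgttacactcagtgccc
Siglec1 exon 12 (chr2:131075694-131076005) to exon 13 (chr2:131074820-131075071), minus strand: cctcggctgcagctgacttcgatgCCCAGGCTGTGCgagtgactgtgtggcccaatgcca
Atrn exon 2 (chr2:130933386-130933469) to exon 3 (chr2:130935524-130935637), plus strand: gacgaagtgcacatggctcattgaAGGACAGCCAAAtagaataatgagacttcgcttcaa

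The annotated features were read at both positions too. NONMMUT039917.2 covers no exon of Atrn as listed. Shifted by the offset it reaches from exon 5 to exon 1 of ENSMUST00000028794 and 391 bp past the start site, and at most 1861 of its 3636 bases (51.2%) are exonic in 1 Siglec1 transcript, ENSMUST00000110226. NONMMUT039918.2 covers 198 bases (5.61% of its length) of exons 2 and 3 of Atrn as listed. At the offset it lies in no protein-coding gene and on no exon of M21, and its near edge lies 4.06 kb upstream of the Siglec1 start site. By exons, the name Siglec1 region thus holds at the offset for MSTRG.33036.1 and in part for NONMMUT039917.2, and it holds for none of the 3 as listed. At the offset, MSTRG.33036.1 and NONMMUT039917.2 are the 2 features of the table that touch Siglec1, and as listed 0 features touch it.

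**Figure D1:**
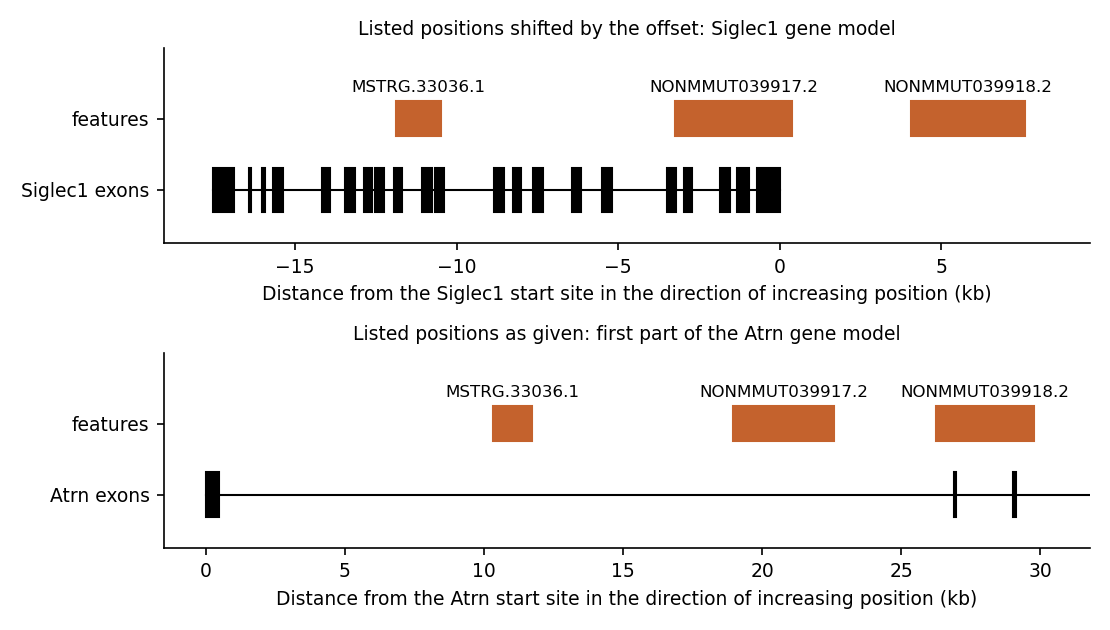
Exons (black) and the 3 features (orange) along distance in kb from the gene's start site, with the listed positions shifted by 158080 bp over Siglec1 (top) and as given over the first exons of Atrn (bottom). In the top panel MSTRG.33036.1 sits on exons 11 to 13, NONMMUT039917.2 on exons 1 to 5 and NONMMUT039918.2 4.06 kb beyond the start site; in the bottom panel only NONMMUT039918.2 meets exons.

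NONCODE entries have no model in M21 to match, so for them the listed and the shifted position were compared through the reads of the other 277 unspliced annotated features of that stretch of chromosome 2. Of these, 34 had at least 25% of their interval covered by protein-coding exons at the offset, and they held a median of 107 reads per kb over the 6 libraries, against 25.8 for the 180 without exon cover there. By listed position the order was the other way, with a median of 14.8 reads per kb in the 15 features with at least 25% cover and 34.2 in the 233 without. The features share libraries and differ in mappability and base composition, so these medians are a description. On the same scale MSTRG.33036.1 held 119 reads per kb of transcript, NONMMUT039917.2 held 19.3 and NONMMUT039918.2 held 14.2.

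**Figure D2:**
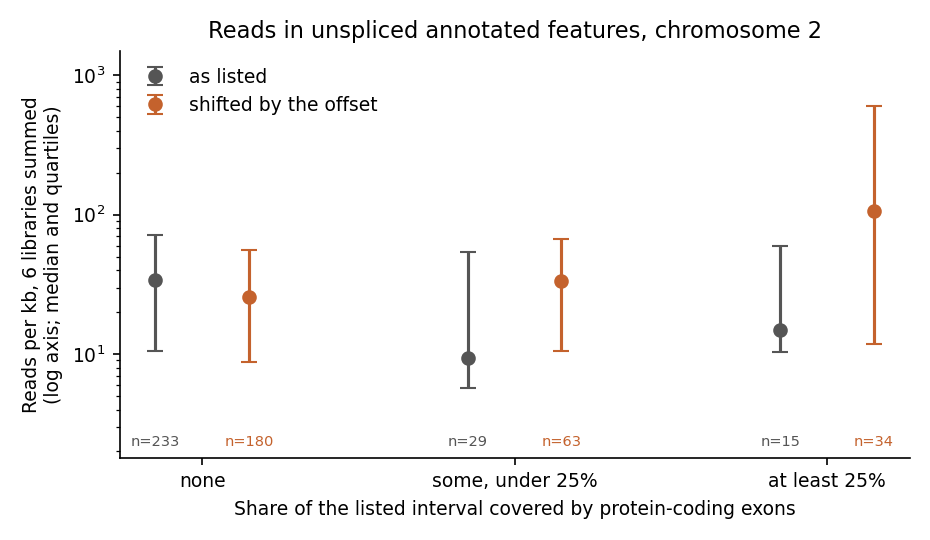
Reads per kb summed over 6 libraries (log axis, median with quartiles) in 277 unspliced annotated features of chromosome 2, by the share of the interval that protein-coding exons cover, with positions as listed (grey) or shifted by 158080 bp (orange). Shifted, the median is 107 with at least 25% cover and 25.8 with none; as listed it is 14.8 and 34.2.

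MSTRG.33036.1, the spliced feature, held 28, 20 and 23 reads in LPS_PMMA 1, 2 and 3 and 6, 0 and 3 in LPS_ES_PMMA 1, 2 and 3. Every LPS_PMMA library lay above every LPS_ES_PMMA library. In CPM (counts per 1000000 TMM-scaled counts) it stood at 9.79 ± 3.22 (SD, n = 3) in LPS_PMMA and 0.806 ± 0.732 in LPS_ES_PMMA, a fitted log2 fold change of -3.32 (SE 0.62). The group sums of 71 and 9 reads have exact 95% Poisson intervals of 55.5 to 89.6 and 4.12 to 17.1, which cover counting error only. The 0 in the shallow library LPS_ES_PMMA 2 allows up to 3 reads, or 1.49 CPM, a level close to the 1.43 CPM of LPS_ES_PMMA 1.

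NONMMUT039917.2, over the first Siglec1 exons at the offset, held 26, 15 and 16 reads in the LPS_PMMA libraries and 5, 2 and 6 in the LPS_ES_PMMA libraries. The groups did not overlap in CPM either. Its level was 7.99 ± 3.93 CPM (SD, n = 3) against 1.39 ± 0.523, a log2 fold change of -2.45 (SE 0.51). LPS_PMMA 1 stood apart at 12.5 CPM beside 5.79 and 5.66 in the other LPS_PMMA libraries. That library has the lowest TMM factor (0.561), which raises its CPM, and its part in the difference is given by the value without it, -2.02.

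NONMMUT039918.2, which no Siglec1 exon reaches at either position, held 12, 12 and 15 reads in LPS_PMMA and 4, 3 and 4 in LPS_ES_PMMA. The libraries of each group were close to one another, at 4.63 to 5.78 CPM in LPS_PMMA and 0.952 to 1.49 in LPS_ES_PMMA. The means were 5.24 ± 0.579 and 1.25 ± 0.275 CPM (SD, n = 3), and the log2 fold change was -2.07 (SE 0.41).

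Added together, the 3 features held 66, 47 and 54 reads in LPS_PMMA and 15, 5 and 13 in LPS_ES_PMMA, 200 reads in all. The sum was 23.0 ± 7.63 CPM against 3.45 ± 0.911 (SD, n = 3), a log2 fold change of -2.69 (SE 0.37), or 6.47-fold lower with enoxaparin cement extract. All 3 features had groups that did not overlap, with the LPS_ES_PMMA libraries below, as had 14.6% of all tested features. In that direction edgeR called 2.58% of all tested features, and it called 3 of the 3 (range over settings 0 to 3); as the choice of the features used this contrast, nothing is read from that count. Under column totals the sum stood at -1.93 and under library totals implied by FPKM at -2.22, which is -2.73 and -2.66 relative to the median over tested features, against -2.72 under TMM.

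**Figure D3:**
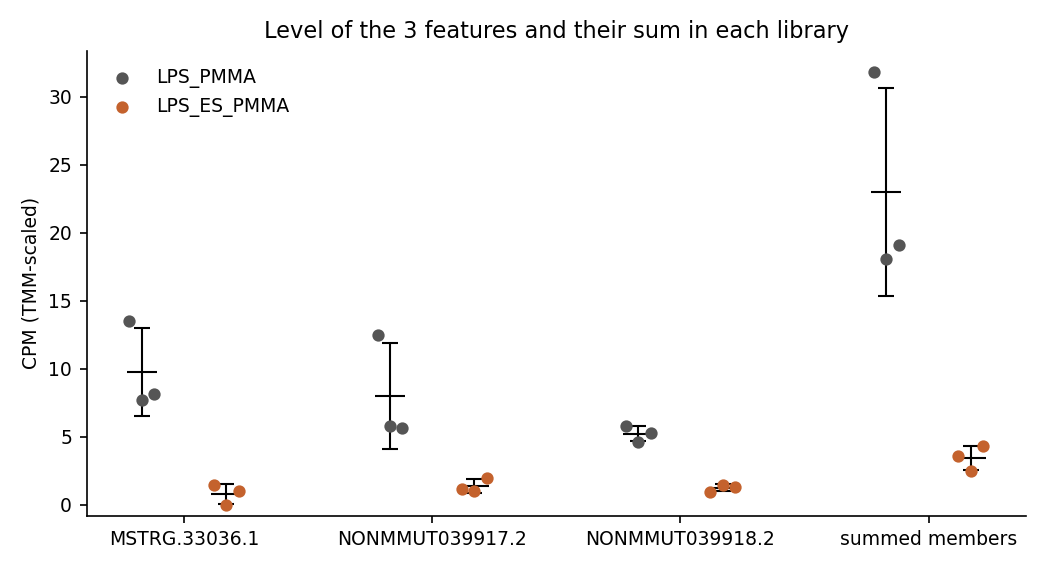
Level in CPM (TMM-scaled counts per 1000000) of the 3 features and their sum in each library, LPS_PMMA in grey and LPS_ES_PMMA in orange, with the mean and SD of 3 libraries in black. For the sum the LPS_PMMA libraries lie between 18.1 and 31.8 and the LPS_ES_PMMA libraries between 2.48 and 4.29.

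The authors' deposited table gives log2 ratios of group mean FPKM (fragments per kb of transcript and per 1000000 fragments) of -3.07 for MSTRG.33036.1, -2.03 for NONMMUT039917.2 and -1.64 for NONMMUT039918.2. Its q-values were 0.00559, 0.0565 and 0.193. It marks MSTRG.33036.1 and NONMMUT039917.2 as down and leaves NONMMUT039918.2 unmarked.

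Per length, MSTRG.33036.1 was the highest of the 3 in 5 of 6 libraries and the lowest, at 0, in LPS_ES_PMMA 2. Its FPKM was 9.32, 7.18 and 8.85 in LPS_PMMA 1 to 3 and 1.99, 0 and 1.04 in LPS_ES_PMMA 1 to 3. On this scale, which uses the authors' library totals, LPS_PMMA 1 lies close to LPS_PMMA 3 for this feature. NONMMUT039917.2 had 1.6, 0.994 and 1.14 FPKM in LPS_PMMA and 0.306, 0.222 and 0.383 in LPS_ES_PMMA. NONMMUT039918.2 had 0.759, 0.819 and 1.1 FPKM in LPS_PMMA and 0.252, 0.343 and 0.263 in LPS_ES_PMMA. Within libraries, NONMMUT039917.2 lay above NONMMUT039918.2 in 5 of 6, all but LPS_ES_PMMA 2. The margin was small in LPS_PMMA 3 (1.14 and 1.1), and levels of the NONCODE pair overlapped across the libraries of each group. By mean FPKM over the 6 libraries MSTRG.33036.1 lay above 81.0% of all features, NONMMUT039917.2 above 42.8% and NONMMUT039918.2 above 37.4%.

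The division of reads among the 3 features was not used to choose them. MSTRG.33036.1 took 42.4%, 42.6% and 42.6% of their summed reads in LPS_PMMA 1 to 3, an even share, and 40.0%, 0% and 23.1% in LPS_ES_PMMA 1 to 3. The mean share was 42.5% ± 0.0881 (SD, n = 3) against 21% ± 20.1 (p = 0.1 by an exact two-sided permutation test, which cannot go lower with 3 libraries a group, and 0.2 after Benjamini-Hochberg adjustment over 3 shares). NONMMUT039917.2 took 33.6% ± 5.11 in LPS_PMMA and 39.8% ± 6.41 in LPS_ES_PMMA (exact permutation p = 0.2). NONMMUT039918.2 took 23.8% ± 5.02 and 39.1% ± 18.2 (exact permutation p = 0.2). The LPS_ES_PMMA shares rest on 5 to 15 reads a library. Without LPS_ES_PMMA 2, the library with 5 reads, the difference in share went from -21.5 to -11.0 percentage points for MSTRG.33036.1 and from 15.3 to 4.89 for NONMMUT039918.2.

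Atrn gave a comparison at either reading of the positions. As listed, 3 other features lie in Atrn, and they held 12, 5 and 45 reads in the LPS_PMMA libraries against 124, 15 and 171 with enoxaparin, nearly all of them in NONMMUT039924.2 at the 3′ end of the gene. Their sum was 31.1 ± 24.6 CPM with enoxaparin and 7.88 ± 7.23 without (SD, n = 3, exact two-sided permutation p = 0.2), and the groups overlapped. At the offset, 6 features lie in Atrn, none of them among the 3, with 14, 14 and 18 reads in the LPS_PMMA libraries against 39, 33 and 19 with enoxaparin. That sum was 10.6 ± 5.19 CPM against 6.17 ± 0.694 (SD, n = 3, exact two-sided permutation p = 0.3). At either reading the other Atrn features had the higher mean with enoxaparin, and their difference from the 3 features was not tested.

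Around the 3 features, 25 others are listed within 250 kb, of which 7 had enough reads to be tested. By edgeR 1 of the 7 was lower in LPS_ES_PMMA and none higher, against 4.76% of all tested features called. The features tested and not called included MSTRG.33000.1, the transcript with the Ap5s1 ends (73.7 ± 6.0 CPM in LPS_PMMA and 41.4 ± 8.62 in LPS_ES_PMMA; log2 fold change -0.83, SE 0.26, edgeR adjusted p = 0.113). NONMMUT146981.1 held 41.9 ± 2.56 and 43.6 ± 10.2 CPM (edgeR adjusted p = 0.922), and the difference for MSTRG.33032.1 was -0.04 on the log2 scale (SE 0.43, edgeR adjusted p = 0.972). NONMMUT039924.2, in Atrn as listed and at Spef1 at the offset, with 10, 3 and 39 reads in LPS_PMMA and 121, 15 and 163 in LPS_ES_PMMA, had a log2 fold change of 2.17 (SE 0.88, edgeR adjusted p = 0.2). NONMMUT039897.2 held 10, 10 and 10 reads in LPS_PMMA and 11, 4 and 6 with enoxaparin, without overlap in CPM (log2 scale -0.84, SE 0.39, edgeR adjusted p = 0.255).

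The neighbour called was NONMMUT039936.2 (131103484 to 131104613), with 32, 21 and 25 reads in LPS_PMMA and 0 in each LPS_ES_PMMA library (edgeR adjusted p = 0.0139). It passed the read filter only through LPS_PMMA, where it was high, so nothing is read from the count of neighbours called. Against 3 counts over the group NONMMUT039936.2 was at least 32.1-fold lower. It overlaps 3 other NONCODE features that start within a few bases of it. Among them, NONMMUT039935.2 held 10, 17 and 28 reads in LPS_PMMA and 85, 39 and 42 in LPS_ES_PMMA (log2 fold change 1.31, SE 0.35, edgeR adjusted p = 0.0779). Summed, the 4 overlapping features held 46, 45 and 60 reads in LPS_PMMA and 98, 44 and 48 in LPS_ES_PMMA, which is 20.3 ± 2.55 and 20.3 ± 3.96 CPM (SD, n = 3, exact two-sided permutation p = 1.0). MSTRG.33036.1, NONMMUT039917.2 and NONMMUT039918.2 share no bases with one another or with other listed features.

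**Figure D4:**
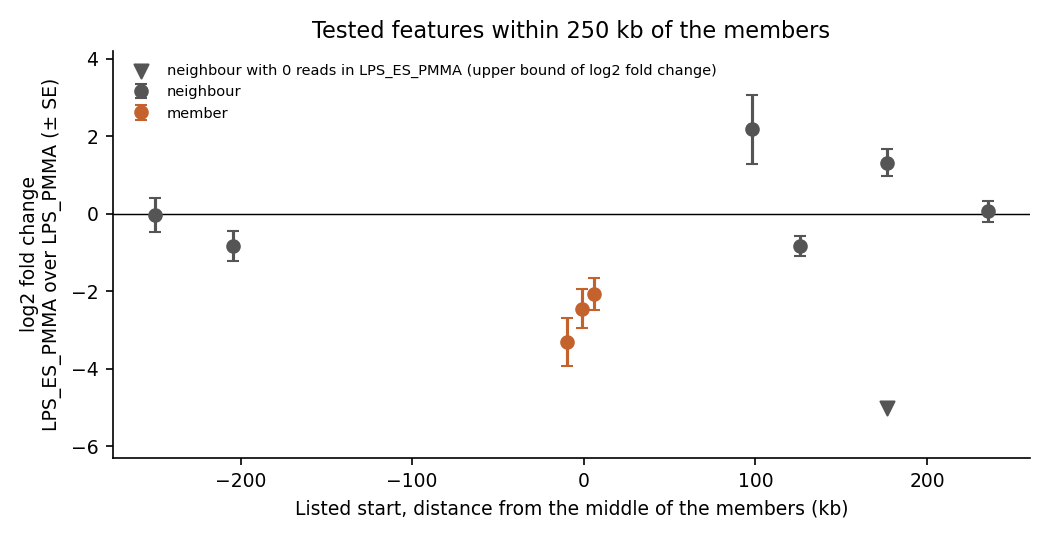
Log2 fold change (LPS_ES_PMMA over LPS_PMMA, with SE) of the tested features within 250 kb, by listed start in kb from the middle of the 3 features. The 3 features (orange) lie between -3.32 and -2.07, the other points between -0.84 and 2.17, and the triangle marks NONMMUT039936.2, whose 0 reads allow only a bound.

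Genes that flank Siglec1 include Mavs, the mitochondrial adaptor that passes on the signal of RIG-I, and Pank2, a pantothenate kinase. As listed, 8 tested features lie at genes of this neighbourhood, of which 1 fell, none rose and 7 did not pass (12.5% called). Tied at the offset, 13 were tested, of which 2 fell and 11 did not pass (15.4% called, beside 4.76% of all tested features). Of the 2 that fell, NONMMUT039936.2 passed the read filter only through LPS_PMMA, so nothing is read from that share. The feature that fell under both ties, NONMMUT107944.1, labelled bidirectional with Rnf24 and overlapping the spermine oxidase gene Smox at the offset, held 81.4 ± 10.3 CPM in LPS_PMMA and 28.6 ± 4.55 with enoxaparin (log2 fold change -1.51, SE 0.26, edgeR adjusted p = 0.0216), and the other at the offset was NONMMUT039936.2, at Pank2. NONMMUT039947.2, over Mavs as listed, held 9.0 ± 0.718 CPM in LPS_PMMA and 12.6 ± 1.73 in LPS_ES_PMMA (log2 fold change 0.48, SE 0.27, edgeR adjusted p = 0.344).

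Other sialic acid-binding lectins of the family, and the ligands Spn (CD43) and Muc1, gave little to compare. Of 12 such genes, 2 had a listed feature other than the 3, and 1 feature was tested. NONMMUT124906.1, antisense to an exon of Mag, the myelin member of the family, held 3.16 ± 0.640 CPM in LPS_PMMA and 2.91 ± 0.235 in LPS_ES_PMMA (log2 fold change -0.13, SE 0.39, edgeR adjusted p = 0.888). None of the list passed in edgeR, with 0 at an unadjusted p under 0.05, and DESeq2 called 0.

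Interferon-induced genes, the class to which Siglec1 belongs, were read from a list of 49. As listed, 22 features lie at 14 of them and 8 were tested, of which 6 fell, 1 rose and 1 did not pass, with a median log2 fold change of -4.21 against 0.03 over all features tested. The share called, 87.5%, stands beside 4.76% of all tested features. Some features passed the read filter only through LPS_PMMA, where they were high. Examples are NONMMUT084037.1, with 0, 0 and 6 reads in LPS_ES_PMMA, and MSTRG.29280.1, with 0, 2 and 0. Entry to the tested set thus depended in part on the contrast, and nothing is read from the share. The 7 calls became 1 with a replicate block and 1 without LPS_ES_PMMA 1. This contrast also chose the 3 features, several of the genes were known from earlier results of these data, and neighbouring features are not separate loci, so the count is a description of the list.

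Among the effectors, NONMMUT084037.1 at the Schlafen gene Slfn8 held 97.8 ± 21.2 CPM in LPS_PMMA against 0.661 ± 1.14 (SD, n = 3; log2 fold change -7.11, SE 0.95, edgeR adjusted p = 0.012). NONMMUT011090.2, over an exon of Slfn5, another Schlafen gene, held 83, 79 and 89 reads in LPS_PMMA and 8, 9 and 4 in LPS_ES_PMMA. It fell by 3.79 on the log2 scale (SE 0.44, edgeR adjusted p = 0.00728). Both Schlafen ties are by listed position. Tied at the offset of the nearest matched transcripts, neither feature lies at a gene of the list. The feature at Slfn8 was then NONMMUT011084.2, which had too few reads to be tested. NONMMUT105438.1, labelled antisense to an exon of Ch25h, the gene of cholesterol 25-hydroxylase, which makes an antiviral oxysterol, held 30, 22 and 32 reads against 2, 1 and 0. Its log2 fold change was -4.96 (SE 0.63, edgeR adjusted p = 0.01). MSTRG.29280.1 and MSTRG.29277.1, tied to Ifit2, whose product binds foreign RNA, had log2 fold changes of -6.35 and -4.62 (edgeR adjusted p = 0.0106 and 0.0265). NONMMUT026433.2, over an exon of the ADP-ribosyltransferase gene Parp14, fell by 1.14 (SE 0.25, edgeR adjusted p = 0.0472). The ties to Ch25h, Ifit2 and Parp14 are by listed position too, and no single local offset could be had there to check them. The Ifit2 pair are assembled transcripts, whose listed positions are displaced.

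The remaining tested features of the list were at Usp18 and Stat2. NONMMUT150657.1, labelled bidirectional with Usp18, which removes ISG15 from proteins and dampens interferon receptor signalling, rose to 19.5 ± 2.03 CPM over 4.68 ± 1.18 in LPS_PMMA (log2 fold change 2.04, SE 0.30, edgeR adjusted p = 0.0159). MSTRG.6909.1, tied to the transcription factor gene Stat2, held 16.7 ± 3.11 CPM in LPS_PMMA and 20.7 ± 7.29 in LPS_ES_PMMA (log2 fold change 0.32, SE 0.34, edgeR adjusted p = 0.622). It is an assembled transcript tied by listed position, and no local offset could be had at Stat2.

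Because listed positions are displaced for assembled transcripts, the list was also tied at the offset of the nearest matched transcripts, which agreed on both sides of 10 of the 49 genes. There 14 features lay at 7 genes and 6 were tested, of which 5 fell and 1 rose, where 2.58% of all tested features fell and 2.18% rose. MSTRG.10274.1, with 4, 2 and 3 reads in LPS_ES_PMMA, passed the read filter only through LPS_PMMA, so this count is a description too. NONMMUT056500.2, at the ADP-ribosyltransferase gene Parp12, fell to 45.4 ± 4.08 CPM, against 303 ± 35.3 in LPS_PMMA (log2 fold change -2.74, SE 0.24, edgeR adjusted p = 0.00279). NONMMUT085775.1 and MSTRG.10274.1, at the RIG-I-like receptor gene Dhx58 (LGP2), had log2 fold changes of -3.27 and -3.96 (edgeR adjusted p = 0.00279 and 0.0165). NONMMUT012061.2 at Ifi35 fell to 5.23 ± 2.47 CPM, against 46.1 ± 20.4 (edgeR adjusted p = 0.017). At Usp18, NONMMUT122964.1 fell by 3.70 (SE 0.34, edgeR adjusted p = 0.00281), while NONMMUT150657.1, which lies upstream of the gene as listed and inside it at the offset, rose. The table ties none of the 5 features that fell to these genes.

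**Figure D5:**
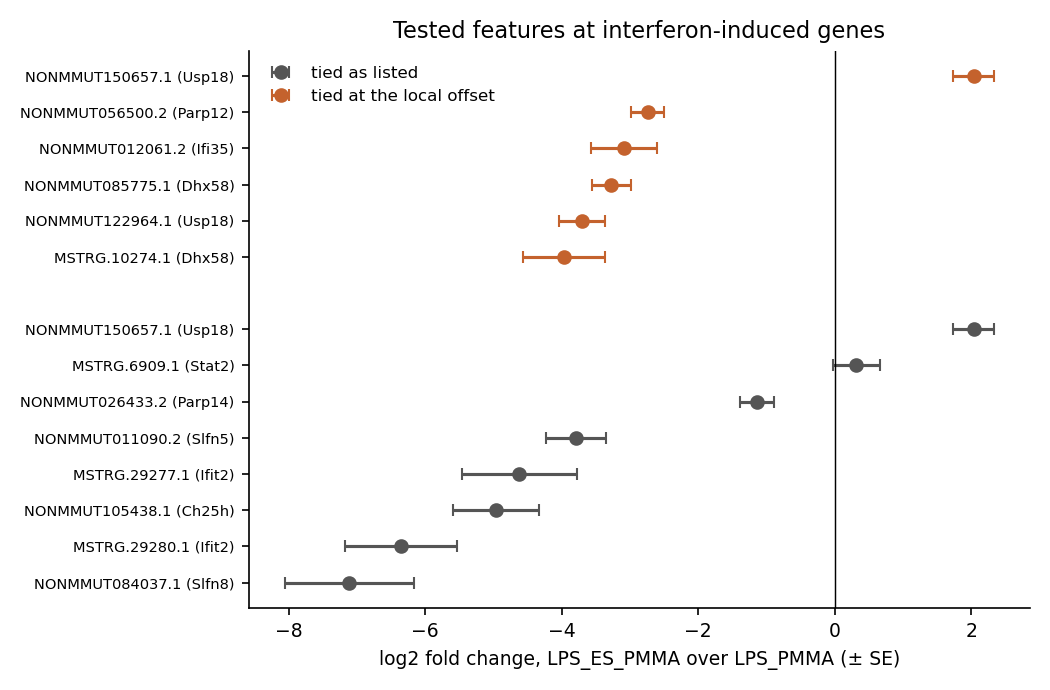
Log2 fold change (LPS_ES_PMMA over LPS_PMMA, with SE) of tested features at interferon-induced genes, tied by listed position (grey, 8 features) or at the local offset (orange, 6 features), with the gene in brackets. Of the grey points 6 passed below 0, from -7.11 to -1.14, and of the orange points 5, from -3.96 to -2.74; NONMMUT150657.1 at Usp18, at 2.04, is in both sets.

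The features whose profile over the 6 libraries was most like the sum of the 3 were found by the root mean square difference of centred log2(CPM + 0.5), over 8870 tested features with a median difference of 1.427. This distance takes in the group difference that chose the 3 features. Near features were thus bound to have a like fold change, and nothing is read from the likeness. The 5 nearest were MSTRG.44237.1 (0.172), MSTRG.24006.1 (0.184), NONMMUT011098.2 (0.202), NONMMUT083131.1 (0.216) and NONMMUT084651.1 (0.235). The table ties them to Sppl3, to Smok2b, to Slfn2 and, for the remaining pair, to no gene. MSTRG.44237.1 (chromosome 5, 115055374 to 115060230) held 241, 211 and 214 reads in LPS_PMMA and 59, 19 and 42 in LPS_ES_PMMA, a higher level than the 3 features with a like ratio (log2 fold change -2.86). At the local offset NONMMUT011098.2 lies in Slfn4, NONMMUT083131.1 in Upp1 and NONMMUT084651.1 over Jmjd6 and Mettl23, and for the first pair no single offset could be had. Of the 3 features themselves, NONMMUT039917.2 was nearest to their sum (0.266), before MSTRG.33036.1 (0.526) and NONMMUT039918.2 (0.541).

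Promoter windows of 300 bases from RefSeq (GRCm38.p6) were searched on both strands for GAAA repeated after any 2 bases, the core of the interferon-stimulated response element. The Atrn window did not hold it, and Siglec1 was not matched in that table. It was found in 3.44% of all 32851 windows. By gene, 3.99% of 27025 genes had it in a window, and of 36 matched genes of the interferon list 18 (50.0%) had it.

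Markers of cell identity could be read only through lncRNA features near their genes. Features lay at 7 of 12 macrophage marker genes, and of the 4 tested 1 passed (25%, beside 4.76% of all tested features). This was MSTRG.3245.1, tied to the Fc receptor gene Fcgr3, which fell (log2 fold change -1.65, SE 0.36, edgeR adjusted p = 0.044). Of the 4 tested, 3 had a log2 fold change below 0. NONMMUT039756.2 at Mertk was higher with enoxaparin (log2 fold change 1.22, SE 0.45, edgeR adjusted p = 0.165). Features with too few reads to be tested, 12 or fewer each, went both ways. The summed level of the macrophage marker features was 82.5 to 130 CPM in LPS_PMMA and 53.1 to 74.0 in LPS_ES_PMMA. Most reads in it came from MSTRG.25685.1, listed as antisense at Adgre1 (776 reads), and MSTRG.3245.1 (358 reads). Both are assembled transcripts, whose listed positions are displaced, and no single local offset could be had for Adgre1 or Fcgr3. Whether they lie at these marker genes is thus not settled, and nothing is read from their part in the sum or from the call at Fcgr3. Features lay at 3 of 20 marker genes of other cell types, with a summed level of 31.3 to 34.0 CPM in LPS_PMMA and 53.8 to 68.4 in LPS_ES_PMMA. Nearly all of it was NONMMUT096548.1, antisense to an exon of the keratin gene Krt8 (edgeR adjusted p = 0.0881). As listed both sums separate the groups, and their part in the difference of the 3 features was not tested. Tied at the local offset both overlapped between the groups, at 7.72 to 13.1 CPM in LPS_PMMA and 8.57 to 17.2 in LPS_ES_PMMA for 1 macrophage gene and at 58.4 to 107 and 69.7 to 102 CPM for 2 genes of other cell types, and 0 of 2 tested features of each list passed edgeR.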

How the data were processed

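The deposited table holds, per the file headers, whole-number counts per transcript, FPKM values, the authors' log2 fold change, p-value and q-value, and listed positions. The aligner, counter and strand setting: not given in the sources used here. Build mm10 is from the submitters' processing notes. FPKM are the authors' values per length and library total. Groups and replicate numbers came from sample titles, and columns were matched through titles and descriptions.

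Features kept by filterByExpr (minimum count 10, minimum total 15) were scaled by TMM over full column totals and fitted with the edgeR 4.0.16 quasi-likelihood test in R 4.3.3, with adjustment over all 8873 tested and a threshold of 0.05. SE was obtained by dividing the fold change (log2) by the root of the F statistic. CPM use TMM-scaled totals of 2.01 to 4.20 times 1000000. The fit was tested on simulated data. Chi-square per degree of freedom between libraries of a group was 15.4 to 45.5, so none was a duplicate. Alternatives used DESeq2 1.42.0, limma 3.58.1 on log2(FPKM + 0.1) and log2(FPKM + 1), other scalings, filters and windows, a replicate block, and leaving out each library. Intervals cover counting error only, since they are Poisson limits that take in no spread between libraries. The reads carry no molecular identifiers.

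The features and lists were chosen with earlier results of these data known. Features were tied to list genes by the deposited gene column, or through overlap with GENCODE M21. Named are the 3 features, tested neighbours within 250 kb, called list members (up to 10 a list by mean count) and the 5 most alike profiles; other features of a list are named for comparison and were chosen after their values were seen. Offsets were measured where both ends and the length of an assembled transcript met an annotated one within 2 bp.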

Additional observations from a re-analysis of the deposited data

How the results depend on the processing

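The sum of the 3 features stayed below 0 in all 14 alternatives, at -1.93 under column totals, -2.22 under library totals implied by FPKM, -2.23 in limma on log2(FPKM + 1) and between -2.90 and -2.42 when 1 library was left out. Single features also stayed below 0, but in limma on log2(FPKM + 1), which shrinks low values, NONMMUT039917.2 went from -2.45 to -0.78 and NONMMUT039918.2 from -2.07 to -0.55. The edgeR calls of the single features did not last: with any library left out, 0 of them passed, as with column totals, FPKM-implied totals, no filter or a replicate block. Across all features 422 calls became 174 without a filter, 41 with a replicate block and 50 to 136 with a library left out. Calls at interferon-induced genes went from 7 to 1 with the replicate block and 1 to 5 with a library left out (1 without LPS_ES_PMMA 1, 2 without LPS_PMMA 2, 3 without LPS_ES_PMMA 3, 4 without LPS_ES_PMMA 2). The neighbour called was lost (0) with the replicate block, within 100 kb, and without LPS_ES_PMMA 1, LPS_ES_PMMA 3 or LPS_PMMA 2 (range 0 to 1), and 500 kb gave 2. The call at flanking genes was lost (0) under column totals, FPKM-implied totals, no filter, the replicate block, both limma fits and each left-out library (0 in all), and ties at the offset, chosen after seeing the data, gave 2. The cause was not tested. Same-numbered libraries showed no sign of pairing (correlation of deviations -0.017, -0.029 and -0.086), and none correlated best with its own number. A weak shared effect could escape this check, and the labels do not state whether libraries were paired. The read shares kept their direction with each library left out. Among the 8 candidates, the offset with most length matches was 158080 bp in windows of 5, 10 and 20 Mb.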
